A study of Mus musculus with 6 samples.

Results

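The genes described are Malat1, Neat1, Gm42418, Gm23935 and Lars2, 5 of the 43346 gene IDs counted in each of 6 mouse liver libraries. They were chosen by symbol and partly for their high read counts, so their levels and ranks are a description, and where a p-value is printed for a gene that ranks high, nothing is read from it. The choice does not state in which libraries the counts were high. There were 3 Control libraries and 3 libraries labelled DKO, for a hepatocyte-specific double knockout of β-catenin (Ctnnb1) and γ-catenin (Jup), all from C57BL6 mice aged 3 months and all total RNA of whole liver. The labels do not name the Cre driver or the Control alleles, and they number the libraries but do not tie them to separate animals. The p-values therefore measure only the spread between these libraries, which may be technical.

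Malat1 and Neat1 are long noncoding RNAs that stay in the nucleus. Malat1 gathers in nuclear speckles, which store splicing factors, and the end of its primary transcript is cut off by RNase P as a small tRNA-like RNA, mascRNA. Neat1 is the scaffold of paraspeckles, nuclear bodies built on its long isoform. Ribosomal RNA makes up most of the RNA of a cell, and library preparation usually avoids or depletes it, so that reads from what remains can be counted in genes whose sequence resembles it. Lars2 encodes the mitochondrial leucyl-tRNA synthetase, which charges the leucine tRNAs of the mitochondrion.

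On mm10, annotated with GENCODE M21, Malat1 (ENSMUSG00000092341) is a lincRNA on the minus strand of chromosome 19, from 5795690 to 5802672, with 1 exon in its longest transcript of 6983 bases. RefSeq places mascRNA inside it, from 5795924 to 5795981. Neat1 (ENSMUSG00000092274) lies 22035 bases away on the same strand, from 5824708 to 5845478, also with 1 exon in its longest transcript, of 20771 bases. Gm42418 (ENSMUSG00000098178) is a lincRNA of 1831 bases on the plus strand of chromosome 17, from 39846958 to 39848788. Gm23935 (ENSMUSG00000076258) is annotated as a miRNA gene of 57 bases on the plus strand of chromosome 16, from 11144125 to 11144181. It lies in intron 19 of the first listed transcript of Zc3h7a, a gene of the opposite strand. Lars2 (ENSMUSG00000035202) is a protein-coding gene on the plus strand of chromosome 9, from 123366927 to 123462666, with 21 exons in its main transcript of 3894 bases. Its exons cover 11089 bases over 9 annotated transcripts.

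Among Gm42418, Gm23935 and Lars2, annotation gave a link to ribosomal RNA for Gm42418. Gm23935 and Lars2 were not compared with 28S rRNA or the ribosomal DNA repeat. RefSeq annotates Rn18s-rs5, a pseudogene copy of the 18S ribosomal RNA, over 1245 bases of Gm42418. In GENCODE M21 a gene of type rRNA, CT010467.1, spans its whole length on the opposite strand. The rRNA transcript of CT010467.1 matched only bases 1 to 1244 of Gm42418, and its pseudogene transcript matched bases 1146 to 1831. The window around the end of Rn18s-rs5 is shown because it holds the boundary between the part of Gm42418 annotated as 18S-related and the part that is not. It covers bases 1166 to 1305 of the Gm42418 transcript (chr17:39848123-39848262, plus strand), with the 80 bases inside Rn18s-rs5 in capitals.
Gm42418: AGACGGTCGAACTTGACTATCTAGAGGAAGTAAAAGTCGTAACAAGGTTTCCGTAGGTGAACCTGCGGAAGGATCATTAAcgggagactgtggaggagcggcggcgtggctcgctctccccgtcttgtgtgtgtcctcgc

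A blastn search of each gene's transcripts against all GENCODE M21 transcripts matched Gm23935 to 5 other genes, all annotated as miRNA genes and none as rRNA. Gm24245 (chromosome 4, 139338304 to 139338360) and Gm24270 (chromosome 9, 56223715 to 56223771) had the same 57 bases. Gm24187 (chromosome 13, 9834469 to 9834525) differed by G11A, counted from 1 at the 5′ end of Gm23935, which is the capital letter in its line. They are printed because reads from this sequence can be counted under any of these names, or left out where they align to more than 1 place.
Gm23935: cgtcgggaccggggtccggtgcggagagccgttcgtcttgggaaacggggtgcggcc
Gm24245: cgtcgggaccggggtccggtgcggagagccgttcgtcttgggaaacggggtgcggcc
Gm24270: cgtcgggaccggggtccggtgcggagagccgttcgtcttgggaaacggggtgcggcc
Gm24187: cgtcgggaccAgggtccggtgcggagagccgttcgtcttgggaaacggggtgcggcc

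Neither Gm42418 nor Gm23935 matched Lars2. Bases 3278 to 3349 of the main Lars2 transcript, which follow the last coding base at 2905 and so lie in the 3′ untranslated region, matched 72 bases of Gm15564, an antisense RNA gene of chromosome 16, at 98.6% identity. A retained-intron transcript of Lars2 also matched 94 bases of Malat1 at 79.8% identity. Malat1 and Neat1 shared 147 bases at 91.8% identity, and Malat1, Neat1 and Lars2 each also matched transcripts of many other genes (3814, 3831 and 3655), so that their matches are not specific. GC content was 73.7% in Gm23935, 60.2% in Gm42418, 51.2% in Lars2, 47.3% in Neat1 and 42.5% in Malat1, with a median of 49.3% over tested genes.

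The DKO-labelled libraries held few reads in genes. Control libraries had 12320487 to 15869639 gene counts and DKO-labelled ones 309731, 525037 and 1491237 in replicates 1, 2 and 3. Of the targeted genes, Ctnnb1 had 2945, 2896 and 2650 counts in Control against 0, 52 and 65 in those labelled DKO (edgeR adjusted p = 0.171), and Jup 339, 270 and 196 against 6, 1 and 11 (edgeR adjusted p = 0.0847), so neither passed the threshold. The 8 hepatocyte markers summed to 92274 to 107114 CPM (counts per 1000000 gene counts) in Control against 1863 to 43881 in those labelled DKO, and mitochondrial genes took 6.34% to 6.57% and 6.27% to 62.7% of gene counts. In whole liver, fewer cells of a type and less RNA per cell cannot be told apart. The labels give no batch or date. Every direction below is one between libraries as labelled.

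Gm42418, Gm23935 and Lars2 had between 3799 and 26883 raw reads in each of the 6 libraries, although the gene totals differed up to 51.2-fold. Gm42418 had 9954, 10344 and 11061 reads in Control against 12772, 12706 and 18794 in those labelled DKO, a range of 1.89-fold over the 6. Gm23935 had 5210, 7385 and 10207 in Control against 9977, 6968 and 5169 in those labelled DKO, a range of 1.97-fold with overlapping groups. Lars2 had 3799, 4981 and 6880 in Control against 26883, 12847 and 12133 in those labelled DKO, so that each of the latter exceeded every Control library. For comparison, the mean raw count of a DKO-labelled library was 1.19% of the Control mean for the median gene among 1603 genes with at least 1000 counts in every Control library. Among those 1603, Lars2 and Gm42418 were the only genes with no DKO-labelled library below the lowest Control library, a criterion chosen after the data were seen. The floor of 1000 counts leaves out genes that shared this trait, such as Gm24270. It had 738, 902 and 1099 reads in Control against 3422, 2390 and 2258 in those labelled DKO.

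**Figure D1:**
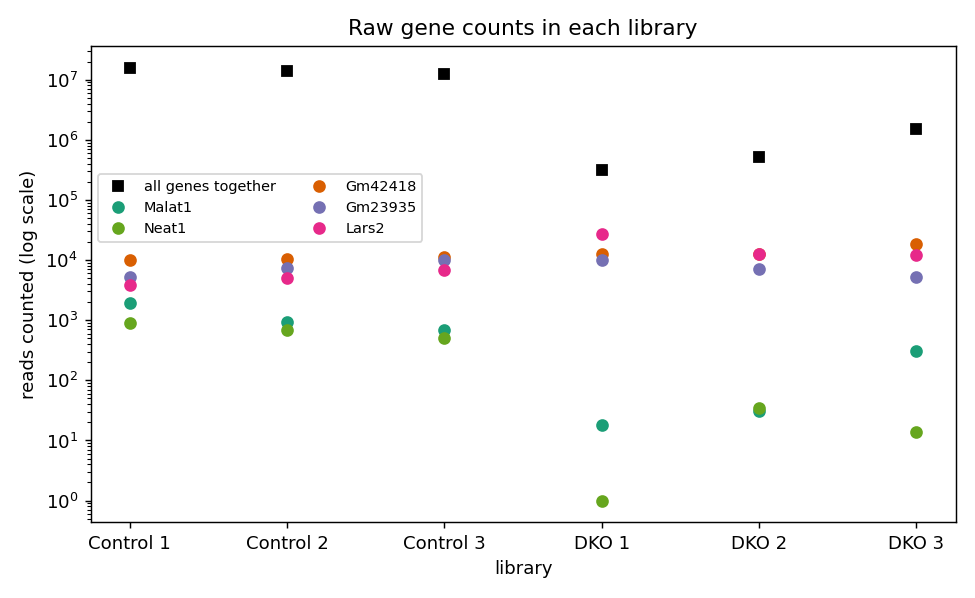
Raw reads counted per library (log scale) for each of the 5 genes (circles) and for all genes together (black squares), in 3 Control and 3 DKO-labelled libraries. The gene total falls from at least 12320487 to at most 1491237, whereas Gm42418 stays between 9954 and 18794, and Malat1 and Neat1 fall to 308 or fewer.

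Malat1 and Neat1 had far fewer raw reads in the libraries labelled DKO. Malat1 had 1911, 929 and 688 in Control against 18, 31 and 308 in DKO replicates 1, 2 and 3. Neat1 had 903, 687 and 507 in Control and 1, 34 and 14. The groups were thus apart for both genes on raw counts, with the Malat1 count of DKO replicate 3 standing well above the other DKO-labelled libraries. The gene totals were apart in the same direction. The median of the 1603 genes with at least 1000 counts in every Control library stood at 1.19% of its Control mean. So the separation on raw counts is not read as particular to Malat1 and Neat1. Among the Control libraries, replicate 1 had the highest Malat1 and Neat1 counts and the lowest counts of Gm42418, Gm23935 and Lars2, and replicate 3 the reverse.

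As shares of gene counts, Gm42418, Gm23935 and Lars2 did not overlap between the groups. Gm42418 took 0.0627%, 0.0741% and 0.0898% of gene counts in Control against 4.12% (95% Wilson interval 4.05 to 4.19), 2.42% (2.38 to 2.46) and 1.26% (1.24 to 1.28) in DKO replicates 1, 2 and 3. Gm23935 took 0.0328%, 0.0529% and 0.0828% in Control against 3.22%, 1.33% and 0.347% in those labelled DKO. Lars2 took 0.0239%, 0.0357% and 0.0558% in Control against 8.68% (8.58 to 8.78), 2.45% (2.41 to 2.49) and 0.814% (0.799 to 0.828) in those labelled DKO. In every case DKO replicate 1, with the fewest gene reads, had the largest share and DKO replicate 3 the smallest. Mitochondrial genes took 6.27%, 14.4% and 62.7% of gene counts in DKO replicates 1, 2 and 3. Without mitochondrial genes, Gm42418 took 4.40%, 2.83% and 3.38%, so that replicate 3 was no longer its smallest. For Gm23935 and Lars2 replicate 3 remained the smallest. Of all tested genes, 37.0% had a share of all gene counts that was higher in each DKO-labelled library than in any Control one, and 29.6% one that was lower.

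The mean shares were 0.0755% ± 0.0136 in Control against 2.60% ± 1.44 in those labelled DKO for Gm42418, 0.0562% ± 0.0252 and 1.63% ± 1.46 for Gm23935, and 0.0385% ± 0.0161 and 3.98% ± 4.15 for Lars2 (SD, n = 3 each). These are ratios of 34.4, 29.0 and 103.4. The 3 genes together took 0.119% to 0.228% of gene counts in Control against 16.02%, 6.19% and 2.42% in DKO replicates 1, 2 and 3. In DKO replicate 1 Lars2, Gm42418 and Gm23935 were the 3 most counted of all genes, in that order. In DKO replicates 2 and 3 Lars2 ranked 4 and 8, Gm42418 5 and 7, and Gm23935 9 and 12, whereas in Control the ranks of the 3 genes ran from 136 to 569.

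**Figure D2:**
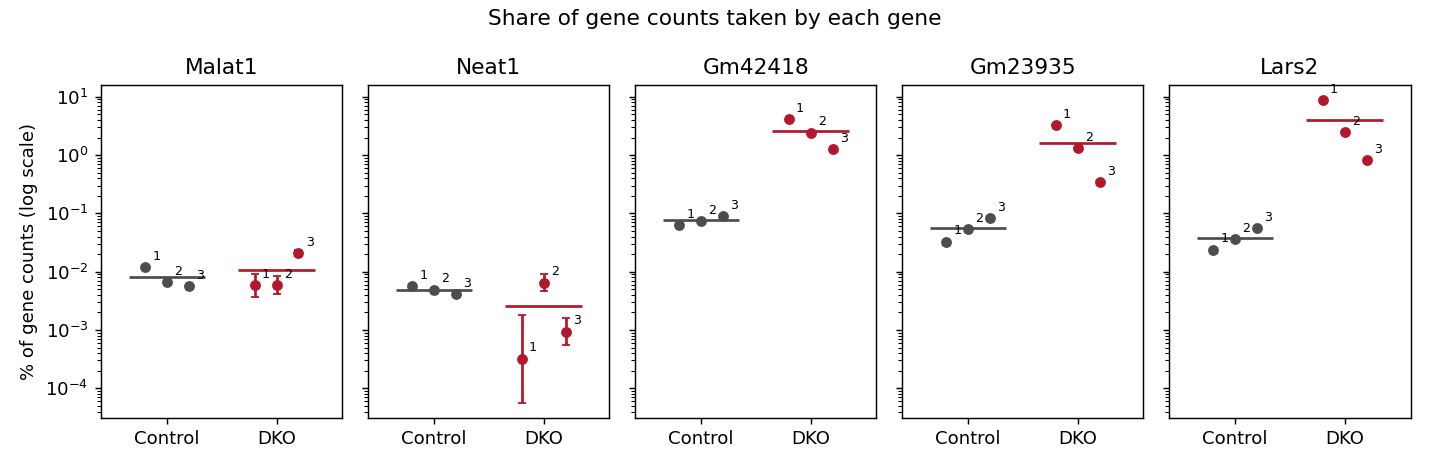
Share of gene counts (percent, log scale) of each gene in each library, with replicate numbers, 95% Wilson intervals as bars (often smaller than the points) and group means as lines, for Control (grey) and DKO-labelled (red) libraries. Gm42418, Gm23935 and Lars2 lie apart between groups, at 0.0239% to 0.0898% against 0.347% to 8.68%, while the Malat1 and Neat1 groups overlap.

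Malat1 and Neat1 shares overlapped between the groups. Malat1 took 0.0120%, 0.00666% and 0.00558% of gene counts in Control against 0.00581% (95% Wilson interval 0.00368 to 0.00919), 0.00590% (0.00416 to 0.00838) and 0.0207% (0.0185 to 0.0231) in DKO replicates 1, 2 and 3. DKO replicate 3 was the highest of the 6 libraries and the other DKO-labelled libraries lay within the Control range. Neat1 took 0.00569%, 0.00492% and 0.00412% in Control against 0.000323% (0.0000570 to 0.00183), 0.00648% (0.00463 to 0.00905) and 0.000939% (0.000559 to 0.00158) in those labelled DKO. DKO replicates 1 and 3 lay below every Control library and replicate 2 above. Two-sided exact permutation tests on the shares gave p = 0.8 for Malat1 and p = 0.4 for Neat1 (0.8 and 0.5 adjusted over the 5 genes). The same exact permutation test gave p = 0.1 (adjusted p = 0.167) for each of Gm42418, Gm23935 and Lars2, the smallest p that 3 against 3 libraries allow, and nothing is read from it, since high counts helped to choose them.

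Counted against all reads instead of gene reads, the picture changed for 3 of the 5 genes. Malat1 had 42.1, 22.7 and 18.6 RPM (reads per 1000000 of all reads) in Control against 1.56, 2.70 and 9.78 in those labelled DKO. Neat1 had 19.9, 16.8 and 13.7 against 0.0865, 2.97 and 0.445, so that both nuclear RNAs were lower in every DKO-labelled library on this scale, as were 64.1% of all tested genes. Gm23935 had 115, 180 and 276 RPM in Control against 863, 608 and 164 in those labelled DKO, which overlap. Gm42418, at 219, 252 and 299 against 1105, 1109 and 597, and Lars2, at 83.6, 121 and 186 against 2325, 1121 and 385, remained apart, as did 21.9% of all tested genes in the same direction.

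In the edgeR quasi-likelihood fit over 15561 genes, Gm42418 had a log2 change of 4.36 (SE 1.47, adjusted p = 0.0362) between DKO-labelled and Control libraries. Lars2 had one of 5.57 (SE 1.62, adjusted p = 0.0195). Gm23935 had one of 3.83 (SE 1.41) and did not pass the threshold of 0.05 (adjusted p = 0.0513). So 2 of the 5 genes were called higher and 0 lower (0 lower also at an unadjusted p under 0.05 and with DESeq2), where edgeR called 44.1% of all tested genes, 31.3% higher and 12.8% lower. Since high counts helped to choose these genes and they rank high in the libraries labelled DKO, nothing is read from their calls. Malat1 had a log2 change of 0.44 (SE 1.00, adjusted p = 0.726), and Neat1 one of -1.33 (SE 0.93, adjusted p = 0.252). Neither passed in this fit, whereas without a filter on low counts Neat1 was called lower on the same 6 libraries (log2 fold change -1.89, edgeR adjusted p = 0.0201), in a fit whose all-gene median was 2.10.

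Leaving out Control replicate 1, 2 or 3 ended the edgeR calls of Gm42418 (adjusted p = 0.174, 0.181 and 0.167) and Lars2 (0.127, 0.130 and 0.110), while their log2 fold changes stayed at 4.29 to 4.52 and 5.38 to 5.96. Leaving out DKO replicate 1, 2 or 3 brought Gm23935 past the threshold (edgeR adjusted p = 0.0101, 0.0241 and 0.0418). Without DKO replicate 3 the log2 fold change of Malat1 turned to -1.16 (edgeR adjusted p = 0.155), and without DKO replicate 2 that of Neat1 was -3.01 (edgeR adjusted p = 0.0182). Scaling each library on 163 abundant liver genes, which moved the all-gene median from -0.08 to 4.68 on the log2 scale, gave 4.81 for Malat1 (edgeR adjusted p = 0.0361) and 1.65 for Neat1 (edgeR adjusted p = 0.214). Malat1 lay near that median and Neat1 below it, a difference that was not tested. The median includes genes tested only through reads in the libraries labelled DKO, so Neat1 is not read as low against other genes. Over all genes the calls were 4871 higher and 1992 lower with TMM, 5045 and 3577 with DESeq2's size factors, and 9718 and 85 on the abundant-gene scale.

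**Figure D3:**
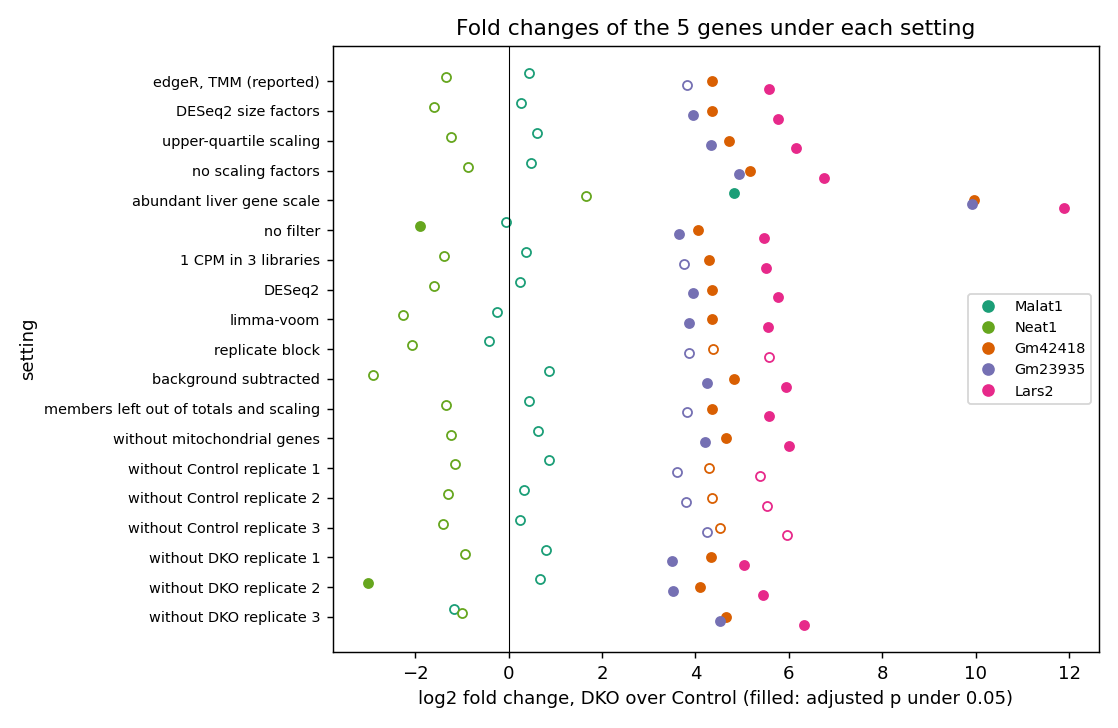
Log2 fold change of each gene, DKO-labelled over Control, in the reported edgeR fit and 18 alternatives. Filled circles have an adjusted p under 0.05. Gm42418, Gm23935 and Lars2 lie between 3.50 and 11.88 in each setting drawn, while Malat1 runs from -1.16 to 4.81 and Neat1 from -3.01 to 1.65.

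Set against genes abundant in Control liver, Malat1 was not low in any DKO-labelled library. These 163 genes are protein-coding, not mitochondrial, and had over 30000 counts summed over the Control libraries. Being chosen on Control alone, they tend to be lower in the other group, which by itself raises other genes on this scale. Per 1000 counts of the 163 abundant liver genes, Malat1 had 0.278, 0.155 and 0.130 counts in Control against 5.01, 0.280 and 8.01 in DKO replicates 1, 2 and 3. Neat1 had 0.131, 0.114 and 0.0959 in Control and 0.278, 0.307 and 0.364. Both genes were thus above the highest Control value in each DKO-labelled library, on a scale where edgeR called 9718 of 15561 genes higher and 85 lower, and the Neat1 value of DKO replicate 1 rests on 1 read. Gm42418, at 1.45 to 2.09 in Control, had 3554, 115 and 489, and Lars2, at 0.553 to 1.30, had 7480, 116 and 316, with DKO replicate 2, which held the most liver RNA by Alb share (3.08%), lowest for both.

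Part of these counts lay at the level of background reads, estimated from 8600 protein-coding genes nearly silent in Control liver and scaled to exon length and GC content. For Malat1, 18, 31 and 308 reads compared with 7.44, 4.28 and 11.1 expected from background in DKO replicates 1, 2 and 3, so each count was above it. For Neat1, 1, 34 and 14 reads compared with 37.7, 24.4 and 62.2, so that Neat1 was below the expectation in replicates 1 and 3 and not far above it in replicate 2. The expectation is a mean rate over many genes and can miss for a single one. The long noncoding RNA Meg3 had 0, 0 and 0 reads with 32.8, 21.2 and 54.1 expected. Another, Tug1, had 6, 3 and 22 with 4.85, 3.33 and 9.23 expected. Whether the Neat1 reads are background was not tested. For Gm42418 and Gm23935 the expectation was at most 5.82 reads, and for Lars2 at most 40.1, against at least 5169 counted.

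**Figure D4:**
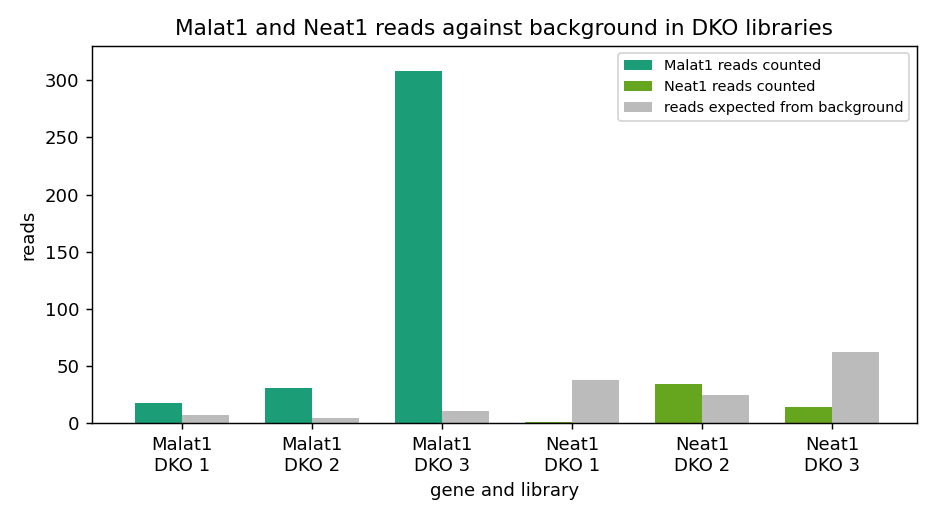
Reads counted for Malat1 (dark green) and Neat1 (light green) in each DKO-labelled library beside the reads expected there from background (grey bars), on a linear axis. Malat1 exceeds background in each library, most in DKO replicate 3 with 308 against 11.1, whereas Neat1 lies below it in DKO replicates 1 and 3.

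Per kilobase of exon, the order of the 5 genes was the same in both groups. In Control, Gm23935 had 9860 ± 4415 counts per kb per 1000000 gene counts, Gm42418 413 ± 74.2, Lars2 34.7 ± 14.5, Malat1 11.6 ± 4.96 and Neat1 2.36 ± 0.379 (SD, n = 3), and no neighbours in this order overlapped. In the DKO-labelled libraries Gm23935 ran from 60811 to 565120, Gm42418 from 6883 to 22521, Lars2 from 734 to 7827, Malat1 from 8.32 to 29.6 and Neat1 from 0.155 to 3.12, and Gm42418 and Lars2 overlapped. The level of Gm23935 on this scale is divided by a length of only 57 bases, and how reads that extend beyond it were counted was not tested. With the longest transcript in place of all exons, Lars2 had 98.9 in Control against 10221 in those labelled DKO.

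Gm23935 and Lars2 had a nearly constant ratio in Control but not in the libraries labelled DKO. There were 1.37, 1.48 and 1.48 Gm23935 reads per Lars2 read in Control against 0.371, 0.542 and 0.426 in DKO replicates 1, 2 and 3, or 1.45 ± 0.0645 and 0.447 ± 0.0874 (SD, n = 3 each). The highest ratio was 1.08 times the lowest in Control and 1.46 times the lowest in the libraries labelled DKO, where the exact 95% intervals did not overlap. Gm42418 varied more against Lars2, with ratios of 2.62, 2.08 and 1.61 in Control against 0.475, 0.989 and 1.55 in those labelled DKO. Gm42418 against Gm23935 ran from 1.08 to 1.91 in Control against from 1.28 to 3.64 in those labelled DKO, with overlapping groups. The 3 genes thus did not hold 1 common ratio over the 6 libraries. Malat1 against Neat1 was 1.61 ± 0.440 in Control against 13.6 ± 11.2 in those labelled DKO, where the denominators were 1, 34 and 14 reads. All 10 pairs were computed, without a test.

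**Figure D5:**
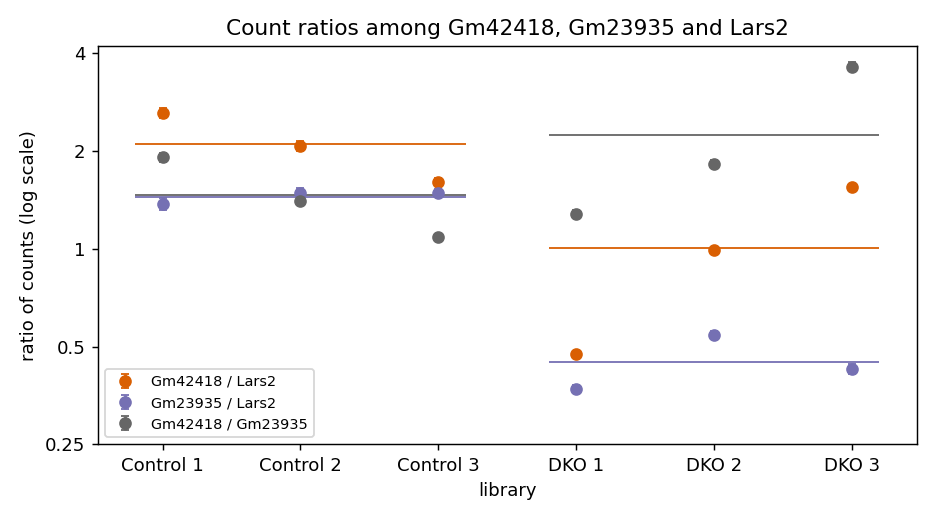
Ratio of raw counts (log scale) for 3 pairs of genes in each library, with exact 95% intervals from the counts as bars and group means as lines. Gm23935 over Lars2 spans 1.37 to 1.48 in Control against 0.371 to 0.542 in those labelled DKO, and the pairs with Gm42418 spread more widely.

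The printed copies of the Gm23935 sequence were also more counted in those labelled DKO, where edgeR called 31.3% of all tested genes higher. Gm24270, identical over the printed 57 bases, had 738, 902 and 1099 reads in Control against 3422, 2390 and 2258 in those labelled DKO, a log2 fold change of 5.43 (SE 1.37, edgeR adjusted p = 0.00976). Gm24187, with the G11A difference, had 42, 106 and 124 against 463, 592 and 499 reads (log2 fold change 6.38, edgeR adjusted p = 0.00227). Gm24245 had 0, 4 and 7 against 73, 50 and 67 reads. The raw counts of these printed copies did not overlap between groups, unlike those of Gm23935. Of the matched genes not printed, Gm25911 had 2, 11 and 7 against 104, 84 and 56 reads. Gm23388 had 0, 0 and 0 against 4, 10 and 0, which overlap, and was not tested. Because the sequences are the same, how reads were divided among the copies is uncertain. Gm15564, which shares 72 bases with Lars2, had 24, 52 and 30 against 300, 267 and 68 reads, a log2 fold change of 6.55 (SE 1.13, edgeR adjusted p = 0.00139).

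The genes around the members did not share their values. Zc3h7a, a zinc finger gene whose intron holds Gm23935, had 1234, 825 and 704 reads in Control against 13, 34 and 46 in those labelled DKO, a log2 fold change of -0.96 (SE 0.63, edgeR adjusted p = 0.222). Limd1, beside Lars2, had 451, 376 and 317 against 10, 4 and 62 reads (log2 fold change -0.20, edgeR adjusted p = 0.840). Near Malat1 and Neat1, the protein-coding Frmd8 and Slc25a45 had log2 fold changes of -0.04 and -2.39 and did not pass. Ltbp3, which binds latent TGFβ, rose with one of 2.10 (SE 0.61, edgeR adjusted p = 0.0201), and Tigd3, at 2, 1 and 1 reads in Control against 10, 3 and 54 in those labelled DKO, with one of 7.55 (edgeR adjusted p = 0.000948). Of 9 protein-coding genes within 50 kb of a member, 2 were called higher and 0 lower, against 31.3% and 12.8% of all tested genes. Tigd3 could be tested only through its reads in the libraries labelled DKO, so its call supports nothing. Gm37376, on the opposite strand inside Malat1, had 246, 153 and 135 against 0, 10 and 57 reads, and without a known strand setting its reads cannot be told apart from those of Malat1.

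The genes with the most similar profile over the 6 libraries were found by the root mean square difference of log2 ratios to the Control mean, among 4517 genes with a mean of at least 50 CPM in either group. For Lars2 the nearest was Gm24270, the identical copy of Gm23935 (difference 0.22). For Gm42418 they were Top2a, Cchcr1 and Trpc1 (0.22 to 0.28), of which Top2a had 10, 4 and 14 reads in Control against 34, 31 and 43 in those labelled DKO. For Gm23935 the nearest was Grb10 (0.27), at 61, 59 and 71 against 103, 63 and 48 reads. For Neat1 they were Copz1, Tmem56 and Vps4b (0.18 to 0.22), and Copz1 had 1782, 1201 and 1064 against 3, 63 and 29 reads. For Malat1 the nearest was Kmt2d (0.32), at 924, 583 and 483 against 14, 22 and 133 reads. The genes named for Gm42418, Gm23935 and Malat1 had a mean under 50 CPM in Control. They entered the comparison only through reads in those labelled DKO, so their likeness supports nothing.

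For the lists that follow, the background over all tested genes is 31.3% called higher and 12.8% lower. This background and its median include genes with almost no Control reads, which were tested only through reads in those labelled DKO. After background subtraction the all-gene median log2 fold change was -1.29, with 2301 genes called higher and 2769 lower of 13332. So no list median below is read as low against other genes. Of 14 paraspeckle protein genes edgeR called 0 higher and 2 lower (0 and 6 at an unadjusted p under 0.05), with a median log2 fold change of -1.20 against -0.08 over all tested genes. Rbm14, a paraspeckle component, had 132, 99 and 106 reads in Control against 0, 0 and 1 in those labelled DKO (log2 fold change -4.49, edgeR adjusted p = 0.00944), and Pspc1 144, 101 and 101 against 0, 0 and 2 (-3.57, edgeR adjusted p = 0.0238). The RNA-binding proteins Tardbp and Hnrnpk, the most expressed of the list, had -2.67 (edgeR adjusted p = 0.107) and -2.05 (0.0668). Of 18 nuclear speckle genes edgeR called 0 higher and 4 lower (0 and 4 unadjusted), with a median of -0.95. Srsf1, a splicing factor, had 256, 145 and 169 reads in Control and 0 in each DKO-labelled library, at least 12.8-fold lower (floor of 3 counts for the group as a whole), and the helicase Ddx39b had a log2 fold change of -2.44 (edgeR adjusted p = 0.0167). The splicing factor Srsf5 and the speckle scaffold Son had -1.42 (edgeR adjusted p = 0.213) and 1.05 (0.386).

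Of the RNase P, RNase Z and m6A genes that act on Malat1 or Neat1 RNA, 14 of 15 were tested, with 1 higher, 4 lower (31.3% and 12.8% over all tested genes) and a median of -1.57. Rpp25l and Pop7, both RNase P proteins, were at 0 in each DKO-labelled library and at least 9.86-fold and 4.80-fold lower. Pop5, another, and Elac2, the RNase Z that trims the mascRNA end, had log2 fold changes of -2.29 (edgeR adjusted p = 0.0718) and -1.67 (0.180). The 4 liver mRNAs known for nuclear retention had 0 calls in edgeR (at an unadjusted p under 0.05, 0 were higher and 2 lower), with a median of -2.58 and a lower mean CPM in those labelled DKO for each. Mlxipl, the carbohydrate response factor, had 8131, 5418 and 5056 reads in Control against 0, 83 and 80 in those labelled DKO (log2 fold change -2.84, edgeR adjusted p = 0.140), and Nlrp6 had -2.61 (0.190).

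Of 22 other long noncoding RNAs 19 were found and 11 tested, with 6 higher and 1 lower. Genes of this list with few Control reads could be tested only through reads in those labelled DKO, so this count supports nothing. Kcnq1ot1, an imprinted antisense RNA, had 7, 1 and 2 reads in Control against 23, 21 and 90 in those labelled DKO, below the 99.2, 57.1 and 147.8 expected there from background. Mirg, from another imprinted locus, had 1, 0 and 0 against 10, 4 and 10 reads, with 13.3, 9.49 and 24.1 expected. Gas5, a host of small nucleolar RNAs, had a log2 fold change of -1.74 (edgeR adjusted p = 0.217) and Snhg11 one of 0.89 (0.467).

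Other ribosomal and structured RNAs were mostly too rare to test, with 4 of 11 found genes tested and 1, Gm15564, higher. The mitochondrial rRNA mt-Rnr1 had 3532, 2083 and 1736 reads in Control against 149, 365 and 2290 in those labelled DKO (log2 fold change 2.36, edgeR adjusted p = 0.140), and mt-Rnr2 had one of 2.40 (0.113). Of the 16 mitochondrial tRNA synthetases other than Lars2, 2 were higher and 1 lower (31.3% and 12.8% over all tested genes), with a median log2 fold change of -0.87. Wars2, for tryptophan, rose with one of 3.57 (SE 0.77, edgeR adjusted p = 0.00458), from 59, 57 and 36 reads to 20, 14 and 101. Tars2, for threonine, fell with one of -2.26 (edgeR adjusted p = 0.0268), and the most expressed, Iars2 and Fars2, had -1.99 (0.0945) and -0.65 (0.366). Lars2, unlike these synthetases, had raw counts above the whole Control range in each DKO-labelled library. Since high counts helped to choose Lars2, nothing is read from this contrast. Of 19 genes for rRNA synthesis and processing 1 was higher and 2 lower, beside the same background, with a median of -0.83. Polr1e, an RNA polymerase I subunit, had a log2 fold change of 2.36 (edgeR adjusted p = 0.0100), Polr1d one of -2.41 (0.0172) and the nucleolar proteins Npm1 and Ncl -2.15 (0.0422) and -0.83 (0.467).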

How the data were processed

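Each library has 1 deposited file of raw read counts by Ensembl ID. The submitters' processing notes name STAR, HTSeq and mm10 as what the authors used. Versions, library kit, strand setting, annotation release and any rRNA depletion are not given in the sources used. RNA was extracted from liver with RLT buffer and RNeasy columns, per the labels' protocols. The 5 rows that name no gene held 65.1% to 97.3% of reads and stayed out of totals and tests. Names came from a gene name table (42462 IDs matched), and positions, exons and transcripts from GENCODE M21 on the same build. RefSeq positions are on GRCm38.p6. Transcripts were compared with blastn 2.17.0 (word size 11, E at most 1e-05).

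The main test was edgeR 4.0.16 in R 4.3.3 (robust quasi-likelihood, TMM, filterByExpr by group, no covariates), with Benjamini-Hochberg adjusted p under 0.05 over 15561 genes, two-sided. It was run first on simulated data, with Control proportions in every library apart from set changes and with less spread than here. That run does not show how the fit behaves on these libraries. CPM are per 1000000 gene counts, without TMM. Exact permutation tests used 20 arrangements. Intervals and floors cover counting error only. No library pair was identical. The 5 genes, 8 gene lists and named-gene rule (the 5, the targeted genes, Alb, neighbours within 50 kb, 3 nearest profiles, and per list the 2 most expressed and up to 2 called members) were chosen with earlier results of these data known. Alternatives were DESeq2 1.42.0, limma-voom (limma 3.58.1), other scalings, filters and denominators, background subtraction, leaving out single libraries and a replicate block.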

Additional observations from a re-analysis of the deposited data

Results flagged for a closer look

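Reads that aligned but were assigned to no gene enter none of the shares above. They made up 61.01% to 73.7% of all reads in the DKO-labelled libraries (mean 66.7%) and 37.8% to 40.6% in Control (mean 38.9%). Whether they lie in introns, on the opposite strand of exons or between genes was not tested. They are listed because this signal lies outside the gene counts and is above the Control level in every DKO-labelled library. Reads aligned to more than 1 place, where reads of repeated ribosomal sequence would be put, made up 18.1% to 20.2% in Control against 9.90%, 14.4% and 28.6% in DKO replicates 1, 2 and 3.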

How the results depend on the processing

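Gm42418, Gm23935 and Lars2 had a positive log2 fold change in each of the 18 alternative fits, with an adjusted p under 0.05 in 14, 12 and 14 of them. The log2 fold change of Malat1 turned to -0.046 without a filter, -0.25 with limma-voom, -0.41 with the replicate block and -1.16 without DKO replicate 3 (range over left-out libraries -1.16 to 0.87), and that of Neat1 to 1.65 on the abundant-gene scale. The log2 ratio of Malat1 shares turned to -2.57 with all reads as the denominator and ran from -0.47 to 0.82 when 1 library was left out, and that of Neat1 turned to 1.48 against abundant liver genes. Per kb of its longest transcript, Lars2 had 98.9 (Control) and 10221 (DKO). Over all genes, calls were 9718 higher and 85 lower on the abundant-gene scale, 11477 and 4650 without a filter and 2301 higher after background subtraction. Lower calls numbered 3577 with DESeq2's size factors and 4776 with DESeq2. Leaving out 1 library gave 4130 to 5624 higher and 567 to 4492 lower genes. The cause of these changes was not tested. The replicate block gave 4143 higher and 2179 lower genes, and ended the calls of Gm42418 and Lars2 (adjusted p = 0.144 and 0.0921), with log2 fold changes of 4.37 and 5.56. Between libraries with equal numbers, deviations from the group means correlated at 0.13, 0.09 and -0.03. With so few gene reads in the DKO-labelled libraries, these values cannot tell whether equal numbers are paired. Malat1 and Neat1 rest on 18 and 1 reads in DKO replicate 1, and what depth adds to their spread was not tested.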

Other observations

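Mir6236, a miRNA gene of 123 bases on chromosome 9 (110281287 to 110281409, mm10), was more counted in each DKO-labelled library than in any Control one. It and Gm26917 were chosen after their values were seen. It had 350, 661 and 927 reads in Control against 6573, 3096 and 4876 in those labelled DKO, a log2 fold change of 6.69 (SE 1.56, edgeR adjusted p = 0.00644). Gm26917, from 39843013 to 39846341 on chromosome 17 and so just before Gm42418, had 235, 175 and 175 reads in Control against 33, 8 and 123 in those labelled DKO (log2 fold change 1.87, edgeR adjusted p = 0.0756). Its raw counts were thus lower in each DKO-labelled library, unlike those of its neighbour.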
